A study of Mus musculus with 8 samples.

Results

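The genes of proline-rich salivary proteins were followed in RNA of the exorbital lacrimal gland (LG). The group has 7 members among the 24552 genes of the count table: Prb1, Prh1, Prp2, Prpmp5, Gm4736, Smr3a and Smr2. They were taken by symbol and were selected on their difference between the diets in these same libraries, so every comparison of CR with AL for a member is a description, and calls of members are given as such and support nothing. The LGs came from female C57BL/6J mice that were fed ad libitum (AL) or kept on a 40% calorie restriction (CR) for 4 months. CR was started when the mice were 6 to 7 months old, and the glands of both groups were taken at 10 to 11 months. Each diet gave 4 libraries, named here by diet and replicate number, and all mice were of 1 sex and 1 strain, with no transgene or drug named in the labels. The labels do not say which animal gave which library, so p-values measure only the spread between these libraries.

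Proline-rich proteins are secreted by serous cells of the salivary glands, above all the parotid gland, where they coat surfaces, bind calcium and precipitate the tannins of plant food. Their genes sit in a cluster that arose by duplication, and its proline-rich proteins carry short repeats rich in proline, glutamine and glycine. In rodents, stimulation of beta-adrenergic receptors, which act through cyclic AMP (cAMP), is known to raise their transcripts in the parotid gland. Smr3a and Smr2 belong to another, unlinked family of androgen-regulated salivary genes that encode smaller secreted proteins.

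The coding stretches richest in proline are shown first, since they show which members carry the repeats. Each line gives the 30 successive codons with the most proline codons in the longest coding sequence of the gene, read from GENCODE vM21 transcripts on GRCm38, 5′ to 3′, with proline codons in capitals. No coding sequence was used for Gm4736, which GENCODE classes as an unprocessed pseudogene.
Prb1: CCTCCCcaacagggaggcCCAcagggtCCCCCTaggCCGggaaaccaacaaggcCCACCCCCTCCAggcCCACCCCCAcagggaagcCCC
Prh1: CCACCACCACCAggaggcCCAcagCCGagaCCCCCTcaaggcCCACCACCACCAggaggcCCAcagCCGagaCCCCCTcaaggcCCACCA
Prpmp5: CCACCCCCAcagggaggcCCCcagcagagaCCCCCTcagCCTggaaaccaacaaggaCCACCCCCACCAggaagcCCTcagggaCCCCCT
Smr3a: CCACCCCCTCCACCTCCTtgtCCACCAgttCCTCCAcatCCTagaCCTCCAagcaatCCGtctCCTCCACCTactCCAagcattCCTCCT
Smr2: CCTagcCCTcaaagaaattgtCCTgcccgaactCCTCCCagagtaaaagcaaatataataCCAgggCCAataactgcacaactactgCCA
The stretch of Prh1 also stands, base for base, in Prp2. Proline made up 44.6% of the codons of Prp2 and 43.9% of those of Prh1, and of 21561 coding genes 0 and 1 had a larger share. The share was 31.5% in Prb1, 31.3% in Smr3a and 28.0% in Prpmp5. Smr2 had 15.3%, with 231 genes above it. Glutamine and glycine codons together with proline took 73.2% of Prb1 and 77.8% of Prp2. On chromosome 5 they took 42.9% of Smr3a and 24% of Smr2. Glutamine alone took 2.04% of Smr3a and 3.33% of Smr2, against 15.8% to 21.4% in Prb1, Prh1, Prp2 and Prpmp5.

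Prb1, Prh1, Prp2, Prpmp5 and Gm4736 lie within 487 kb of chromosome 6 (chr6:132114576-132601236 in GENCODE vM21). Prb1, Prpmp5 and Gm4736 are on the minus strand, and Prh1 and Prp2 on the plus strand. Smr3a and Smr2 lie within 107 kb on the plus strand of chromosome 5 (chr5:88002549-88109053). Promoters are shown for pairs that are alike in sequence, so that their levels can be read against them. Each line runs from 100 bases before to 20 bases after the transcript start in RefSeq (GRCm38.p6), 5′ to 3′ along the gene, with TATAA in capitals.
Smr3a, chr5:88002425-88002544, plus strand: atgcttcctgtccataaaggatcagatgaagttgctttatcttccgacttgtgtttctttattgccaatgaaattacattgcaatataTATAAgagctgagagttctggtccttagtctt
Smr2, chr5:88086456-88086575, plus strand: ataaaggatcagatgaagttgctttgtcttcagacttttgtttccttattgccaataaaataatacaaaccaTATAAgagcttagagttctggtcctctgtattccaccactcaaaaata
Prb1, chr6:132210502-132210621, minus strand: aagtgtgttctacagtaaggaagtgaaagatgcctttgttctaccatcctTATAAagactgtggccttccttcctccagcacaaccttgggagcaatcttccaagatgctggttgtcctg
Gm4736, chr6:132117671-132117790, minus strand: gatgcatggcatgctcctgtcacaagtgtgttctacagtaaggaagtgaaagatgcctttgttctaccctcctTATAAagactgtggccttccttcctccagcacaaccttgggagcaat
Prh1, chr6:132569742-132569861, plus strand: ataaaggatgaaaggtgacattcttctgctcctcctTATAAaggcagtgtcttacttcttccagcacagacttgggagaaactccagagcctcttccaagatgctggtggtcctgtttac
Prp2, chr6:132595811-132595930, plus strand: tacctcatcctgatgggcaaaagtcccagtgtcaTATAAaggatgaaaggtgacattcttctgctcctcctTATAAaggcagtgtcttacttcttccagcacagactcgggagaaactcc
Over the 300 bases from 250 before to 50 after the start, 275 of 277 aligned bases were identical between Prb1 and Gm4736 (99.3%) and 260 of 265 between Prh1 and Prp2 (98.1%). Prb1 and Prpmp5 shared 96.6%, and Smr3a and Smr2 90.5%. Between Prb1 and Prh1 identity was 74.0%, and on chromosome 6 the more alike promoters were those on the same strand. TATAA was found on either strand in 7 of 7 members and in 24.9% of all 32851 promoters of this length, and CCAAT in 5 members and 37.4%. The full cAMP response motif TGACGTCA was found in 0 of 7 members and in 1.79% of promoters, and TGACG, which is part of it, in 0 and 20.8%. CACGTG, the E-box of the clock proteins, was in 0 members and 7.15% of promoters, and CAGCTG in 0 and 16.3%. AGAACA, a hexamer of the element that steroid receptors bind, was in Prb1, Prpmp5 and Gm4736 and in 19.0% of promoters. Since several of these promoters are near copies of each other, counts of members are not independent, and nothing is read from them against the percentages. A motif that was not found says only that these letters are not in this window.

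Levels are given as CPM, counts scaled to a common library size with relative log expression (RLE) factors. The libraries held between 12051881 and 22156511 counted reads. A floor of 3 counts, taken as the limit that a count of 0 allows, equals between 0.152 and 0.231 CPM, and covers counting error only, since no molecular identifiers are named for these reads, which are then not independent molecules. Reads came from 3′ ends and were not divided by gene length, so that levels of different genes are set side by side only as reads per gene. The diets were compared with edgeR's quasi-likelihood test on 11211 genes, and genes that changed at least 1.5-fold with a Benjamini-Hochberg adjusted p under 0.05 were called. Where no tool is named, a call is that of edgeR. Over all genes DESeq2 called 413 higher and 316 lower. The share of all genes at an unadjusted p under 0.05 is not given here, so nothing is read from list counts at that threshold. Smr2 did not pass the filter on low counts, and 6 members were tested. The tissue label was checked on 21 LG secretion genes, which summed to between 409400 and 583100 CPM in AL and between 202700 and 501300 CPM in CR. Of these, Lcn3 and Lcn4 were too rare to be tested.

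The members' joint share of the reads was 0.418, 0.188, 0.205 and 0.00719% in the 4 AL libraries, in the order of their numbers. In CR replicates 1 to 4 it was 3.85, 7.33, 2.77 and 0.570%. The 95% Wilson interval, for counting error, was widest relative to its value in AL replicate 4, from 0.00685 to 0.00755%. No AL library reached a CR library, though the margin was narrow between CR replicate 4 and AL replicate 1. The mean was 0.205% ± 0.168 (SD, n = 4) in AL and 3.63% ± 2.82 (SD, n = 4) in CR. Without AL replicate 1 the AL mean was 0.133%, and without CR replicate 2 the CR mean was 2.40%. Smr3a made up most of this share, with 5.34% of the reads in CR replicate 2. The 5 genes on chromosome 6 took 0.599, 1.995, 0.101 and 0.125% in the CR libraries and at most 0.0192% in an AL library. In bulk RNA, fewer cells of a type and less RNA per cell cannot be told apart.

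**Figure D1:**
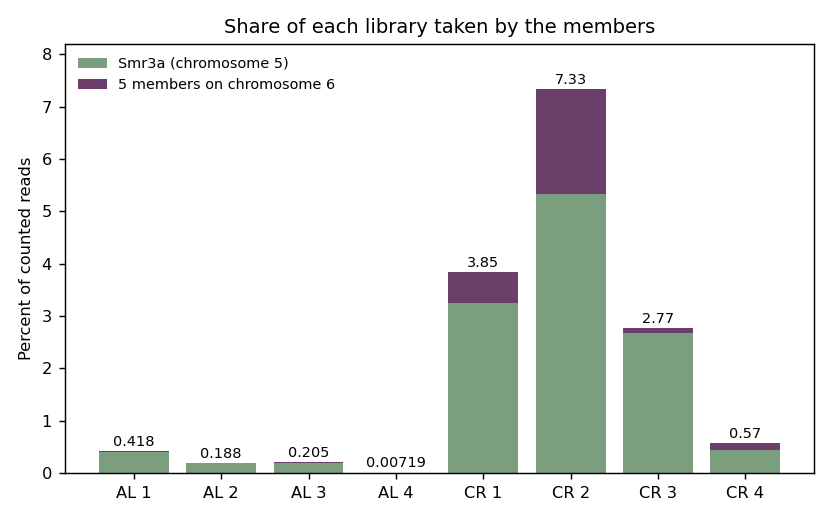
Percent of all counted reads (vertical axis, from 0) taken by Smr3a and by the 5 members on chromosome 6 in each LG library (horizontal axis), with the sum written above each bar. The AL bars reach at most 0.418%, the CR bars lie between 0.570 and 7.33%, and the chromosome 6 part is largest in CR replicate 2.

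Among the 6 members tested, every CR library was above every AL library in 6, and 4 were called higher in CR. Over all genes tested, 4.58% had every CR library above every AL library, 1.2% were called higher and 0.785% were called lower. Since the members were selected on this contrast, nothing is read from the comparison of these shares. The median log2 fold change of the 6 was 5.91, beside a median of 0.01 over all genes tested. The AL and CR libraries numbered 4 were the lowest of their diet for Smr3a, and CR replicate 2 was the highest library for all 6.

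Smr3a (Gene ID 20599; chr5:88002549-88008534) was the most counted member. Its level was 4464, 1798, 1714 and 78.0 CPM in AL replicates 1 to 4. In CR replicates 1 to 4 it was 33066, 53138, 22681 and 4770 CPM. The lowest CR library exceeded the highest AL library by a factor of 1.07 only, so the groups touched without overlapping. By counts Smr3a ranked 18th, 26th, 23rd and 525th among the genes of the AL libraries and 10th, 6th, 9th and 16th in the CR libraries. Its log2 fold change was 3.82 (SE 1.003), and it was not called, though DESeq2 called it. Its transcript shares 46.0% of the 75-base windows in its last 600 bases with Gm28434, a gene annotated over it on the same strand.

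Smr2 (Gene ID 20600; chr5:88086556-88109053), the neighbour of Smr3a, had 0 counts in 7 libraries and 1 count in CR replicate 2, the library with 898427 counts of Smr3a. A count of 0 allows at most 0.231 CPM in any of these libraries. The promoters of this pair were 90.5% identical, whereas their last 600 bases were 74.4% identical and shared no 75-base window.

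Prb1 (Gene ID 381833; chr6:132206795-132210521) encodes a proline-rich protein of the BstNI subfamily and is the longest member, with 504 codons. It had 90.4, 14.5, 28.5 and 1.22 CPM in AL replicates 1 to 4. It had 1769, 5503, 233.0 and 418.4 CPM in CR replicates 1 to 4. The groups did not overlap, with a factor of 2.58 between CR replicate 3 and AL replicate 1, and the CR libraries alone spanned a factor of 23.6. The log2 fold change was 5.88 (SE 1.27).

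Gm4736 (Gene ID 114600 in the count table; chr6:132114576-132117662) ran beside Prb1 in every library. RefSeq lists this symbol under another Gene ID, so its counts were paired with the position, promoter and transcript by symbol alone. Its level was 87.0, 12.9, 33.3 and 1.27 CPM in AL and 2082, 5411, 280.0 and 418.0 CPM in CR replicates 1 to 4. For every 1000 reads of Gm4736 there were between 832 and 1120 reads of Prb1 in all 8 libraries. The log2 fold change was 5.93 (SE 1.25), and the groups did not overlap. Of the 75-base windows of its annotated transcript, 51.6% also occur in the transcript of Prb1 and 53.6% in that of any other gene, so the division of reads between the pair is uncertain. None of the windows in the last 600 bases of Prb1 occurs in the annotated transcript of Gm4736, which is only 380 bases long.

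Prpmp5 (Gene ID 381832; chr6:132311590-132314757) encodes a proline-rich protein known from the parotid gland. It had 27.0, 24.3, 20.97 and 0.203 CPM in AL, the last from 4 counts. It had 389.2, 770.4, 101.7 and 77.4 CPM in CR replicates 1 to 4. In 3 of the AL libraries it was nearly level, and AL replicate 4 stood far below them. The lowest CR library was 2.86 times the highest AL library. The log2 fold change was 4.21 (SE 1.02), and Prpmp5 was not called, though DESeq2 called it.

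Prh1 (Gene ID 19131; chr6:132569809-132572941) encodes a proline-rich protein of the HaeIII subfamily. It had 9.24, 0, 2.40 and 0 CPM in AL replicates 1 to 4. It had 1719, 7255, 217.2 and 360.5 CPM in CR replicates 1 to 4. AL replicates 2 and 4 thus had 0 counts, which allow at most 0.184 and 0.152 CPM, and in CR replicate 2 Prh1 was the 18th most counted gene. The gap between the groups was a factor of 23.5, the widest among the members, and the log2 fold change was 9.72 (SE 1.78).

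Prp2 (Gene ID 83380; chr6:132595913-132601236), the neighbour of Prh1, encodes another proline-rich protein. It had 16, 0, 2 and 0 counts in AL replicates 1 to 4, or at most 1.23 CPM. It had 137.5, 920.6, 20.7 and 62.0 CPM in CR replicates 1 to 4. The groups were apart by a factor of 16.8, and the log2 fold change was 9.85 (SE 1.48). Coding sequences of Prh1 and Prp2 were 95.7% identical over 867 aligned bases, but only 5 of 526 windows at the 3′ end of Prh1 occur in Prp2. For every 1000 reads of Prp2 there were 7500 reads of Prh1 in AL replicate 1, 16500 in AL replicate 3, where Prp2 had only 2 counts, and 12500, 7880, 10500 and 5820 in CR replicates 1 to 4.

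**Figure D2:**
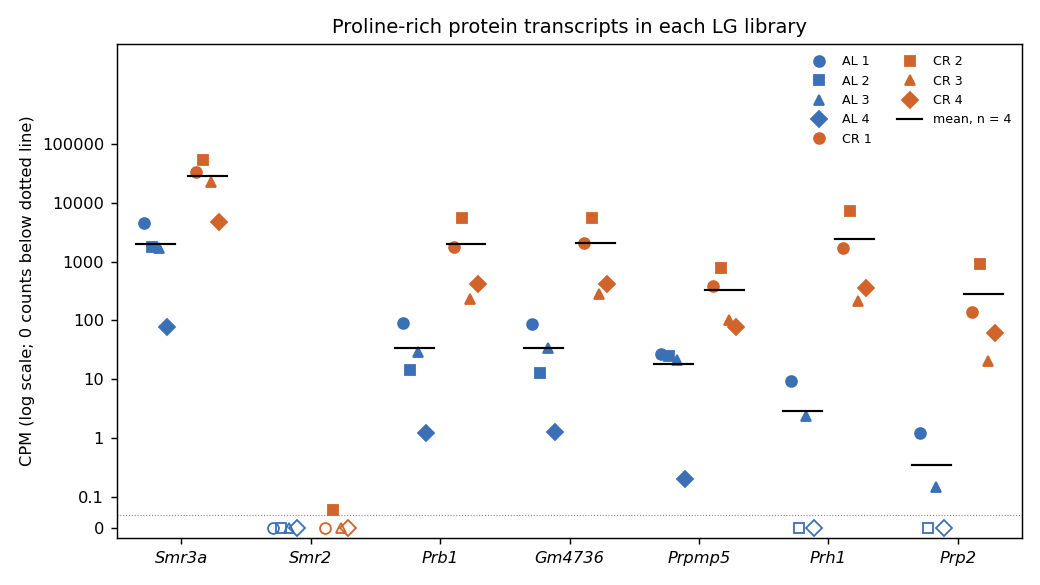
CPM (vertical axis, log scale, with 0 counts drawn as open symbols below the dotted line) of the 7 members in each of the 8 LG libraries, with AL in blue and CR in orange, symbols for the replicate number and a line at the mean of 4 (not drawn for Smr2). The CR symbols lie above the AL symbols for 6 members, narrowly for Smr3a, and Smr2 has 1 count in CR replicate 2.

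Of the pairs of members compared in reads, Prb1 and Gm4736 kept the steadiest proportion, within a factor of 1.35. Prh1 to Prp2 spanned a factor of 2.84 over the 6 libraries with counts of both, its highest value resting on 2 counts of Prp2. The proportions of Prb1 to Prh1 and of Prb1 to Prpmp5 varied more. In AL replicate 2, 236 reads of Prb1 came with 0 reads of Prh1. For every 1000 reads of Prb1 there were 102 reads of Prh1 in AL replicate 1 and 84.4 in AL replicate 3, but 972, 1320, 932 and 862 in CR replicates 1 to 4. Reads of Prb1 per 1000 reads of Prpmp5 ranged from 594 in AL replicate 2 to 7140 in CR replicate 2. After the mean of each diet was taken from the log2 CPM (with a prior count of 2), Pearson's r over the 8 libraries was 0.998 for Prb1 and Gm4736, 0.946 for Prpmp5 and Smr3a and 0.903 for Prh1 and Prp2. It was lowest, at 0.558, for Prp2 and Smr3a. These correlations describe values that share the depth and the dissection of each library, and carry no p.

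Bpifa2, the parotid secretory protein, and Amy1, the salivary amylase, are among the most abundant transcripts of the mouse parotid gland, and their values are given beside the members. Bpifa2 had 17725, 9805, 7910 and 189.9 CPM in AL and 167792, 165017, 151041 and 13685 CPM in CR replicates 1 to 4. Amy1 had 5624, 2857, 1879 and 45.4 CPM in AL and 39244, 50701, 31776 and 3273 CPM in CR. For both, CR replicate 4 fell within the range of the AL libraries, and edgeR called neither, though DESeq2 called both (log2 fold changes 3.80, SE 1.13, and 3.59, SE 1.10; edgeR quasi-likelihood test, Benjamini-Hochberg adjusted p = 0.108 and 0.117). The 5 parotid markers, which were chosen without the members, summed to between 14390 and 43990 CPM in AL and between 56170 and 294300 CPM in CR, and 0 of 5 were called by edgeR (4 at an unadjusted p under 0.05, and 4 called higher by DESeq2). Car6, a secreted carbonic anhydrase, did not overlap between the diets, Dnase1 had a log2 fold change of 1.32 and Lpo, a peroxidase, of -0.04. The part of parotid tissue in the members' values was not tested.

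Relative to Bpifa2, Smr3a varied less than the chromosome 6 members. For every 1000 reads of Bpifa2 there were between 210 and 317 reads of Amy1 over the 8 libraries, a factor of 1.51. Smr3a had between 150 and 411 reads, a factor of 2.74, with the AL and CR libraries interleaved. Prpmp5 spanned a factor of 8.40, from 0.673 reads in CR replicate 3 to 5.65 in CR replicate 4. Prb1 had 5.10, 1.47, 3.60 and 6.41 reads per 1000 in the AL libraries and 10.5, 33.3, 1.54 and 30.6 in the CR libraries, so that CR replicate 3 was among the AL libraries on this scale. Prh1 had 0.521 and 0.304 reads in AL replicates 1 and 3, none in the other two, and 10.2, 44.0, 1.44 and 26.3 in the CR libraries. Prp2 had 0.819, 5.58, 0.137 and 4.53 reads in the CR libraries, 0.0695 in AL replicate 1 and 0.0184 in AL replicate 3 (2 counts). Its 0 counts in AL replicate 4 allow up to 0.801 reads, more than in CR replicate 3, so the diets are not shown to be apart for Prp2 on this scale. Gm4736 had between 1.31 and 32.8 reads. Of the 6 members counted in this way, Prh1 was the one whose CR libraries were all above its AL libraries, since its 0 counts in AL replicates 2 and 4 allow at most 0.0187 and 0.801 reads.

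**Figure D3:**
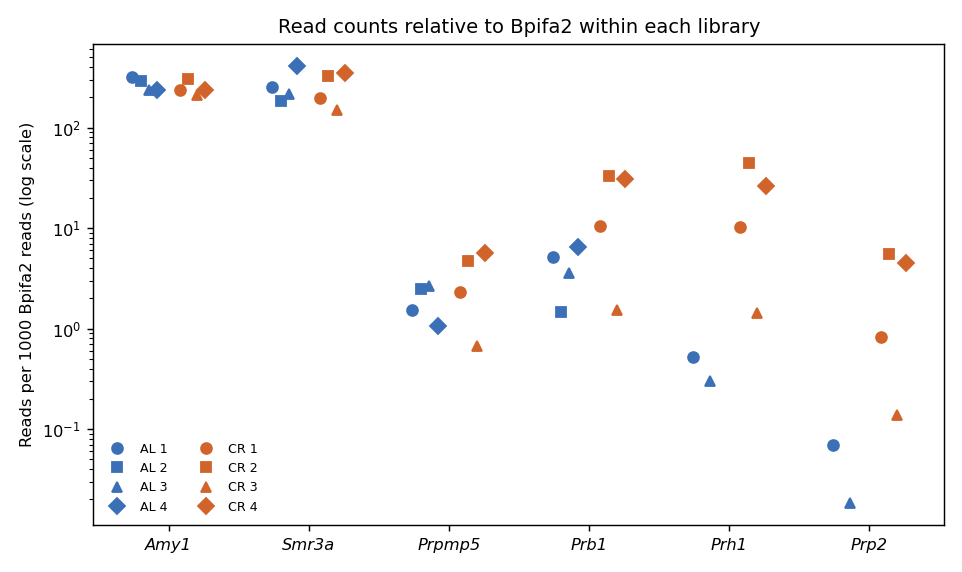
Reads per 1000 Bpifa2 reads of the same library (vertical axis, log scale) for Amy1 and 5 members, with AL in blue, CR in orange and symbols for the replicate number. AL replicates 2 and 4 are not drawn for Prh1 and Prp2, which had 0 counts there. Amy1 spans a factor of 1.51 and Smr3a of 2.74, with both diets mixed, and for Prh1 the CR symbols (1.44 to 44.0) lie above the AL symbols (0.304 and 0.521).

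Markers of other tissues near the gland, of leukocytes and of LG secretion were read next. Over all genes tested, edgeR called 1.2% higher and 0.785% lower. The 23 submandibular and sublingual markers summed to between 22 and 549.8 CPM in AL and between 290.7 and 6102 CPM in CR, most of it from Dcpp1 except in AL replicate 4, where Egf led, and 1 of 6 tested was called higher (4 at an unadjusted p under 0.05, and 4 called higher by DESeq2). That gene was Dcpp3, a demilune cell and parotid protein (log2 fold change 5.04, SE 1.11; edgeR quasi-likelihood test, Benjamini-Hochberg adjusted p = 0.0423), and the call was kept in 2 of 8 fits without 1 library, those without AL or CR replicate 4. Of these 23 markers 5 had 0 counts in every library, among them Smgc, a secreted protein of the submandibular gland, and Muc19, the main mucin of the mouse sublingual gland, had counts in CR replicate 3 alone. The 6 adipocyte markers summed to between 5.75 and 16.3 CPM in AL and between 10.3 and 64.8 CPM in CR, led by Cfd (log2 fold change 1.84, SE 0.55), and edgeR called 0 of 4 tested (3 at an unadjusted p under 0.05, and 1 called by DESeq2). The 5 skeletal muscle markers summed to between 0.797 and 9.85 CPM in AL and between 2.19 and 56.9 CPM in CR, led by Acta1 (2.26, SE 0.94), with 0 of 4 called by edgeR (2 at an unadjusted p under 0.05, and 0 called by DESeq2). Leukocyte markers summed to between 58.7 and 205.5 CPM in AL and between 37.7 and 42.7 CPM in CR, led by Cd74 (-1.54, SE 0.40, called by DESeq2 only), and 1 of 4 was called lower, the lysozyme gene Lyz2 (log2 fold change -1.48, SE 0.30; adjusted p = 0.0312 in the same edgeR test), whose call was kept in 2 of the 8 fits, those without AL replicate 1 or CR replicate 4. All 4 leukocyte markers tested had an unadjusted p under 0.05, and DESeq2 called 4 lower. Of the 19 LG secretion genes tested, Mup5, a major urinary protein, was called higher (7.17, SE 1.06), and the secretoglobins Scgb1b7 and Scgb2b7 lower (-7.82 and -7.96). In that list 8 genes had an unadjusted p under 0.05, and DESeq2 called 1 higher and 6 lower. The call of Mup5 was kept in 8 of 8 fits without 1 library and those of the secretoglobins in 4, being lost without AL replicate 1 or 2 or CR replicate 2 or 3, and without CR replicate 4 their log2 fold changes were -12.11 and -13.47. The most counted of that list, Obp1a, an odorant-binding protein, had a log2 fold change of -0.78 (SE 0.59) and was not called. The part of these tissues in the members' values was not tested.

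Of the genes around both clusters, edgeR tested Gm8882, A630073D07Rik, BC037156 and 1700041A01Rik. It called only Gm8882, which lies between the members on chromosome 6, beside 1.2% of all genes tested called higher. DESeq2, run without the filter on low counts, called that gene and also Csn3, Prol1 and 1700041A01Rik on chromosome 5 higher. Gm8882 (chr6:132361105-132364134 in RefSeq) had 23.3, 12.1, 10.8 and 0.456 CPM in AL and 367.4, 1659, 58.8 and 142.3 CPM in CR replicates 1 to 4. It was called higher, with a log2 fold change of 5.58 (SE 1.16; edgeR quasi-likelihood test, Benjamini-Hochberg adjusted p = 0.0335), and the call was kept in 3 of 8 fits that each left out 1 library, with log2 fold changes from 4.04 (without CR replicate 2) to 6.17. Its coding sequence, 27.6% proline codons, was 95.4% identical to that of Prb1 over the 849 bases aligned, and 12.5% of the 75-base windows in its last 600 bases occur in Prpmp5 or Prb1. The next gene beyond Prp2, A630073D07Rik, had a log2 fold change of 1.02 (SE 0.59) with overlapping groups and was not called. The bitter taste receptor genes Tas2r104, Tas2r105, Tas2r114, Tas2r120 and Tas2r121, the next on either side, had 0 counts in all libraries. Beside Smr3a on chromosome 5, BC037156 had a log2 fold change of 3.16 (SE 1.03) and was not called. Csn3, the gene of kappa-casein, had 79 counts in all, Cabs1 had 10, and Gm7714 had 0. Beyond Smr2, 1700041A01Rik was not called by edgeR (2.75, SE 0.82), and Prol1, a proline-rich lacrimal protein, had 217 counts in all, with at most 8 in an AL library. Of 11 relatives of the members in the deposited counts, 1 was tested and 0 were called by edgeR (0 at an unadjusted p under 0.05), and DESeq2 called 3 higher.

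By the deviation of log2 CPM from the mean of each diet, the genes most like the mean of the tested members over the 8 libraries were AI464131 (Pearson's r 0.989), Ak6 (0.970), Sirt7 (0.969), Casd1 (0.958), Coprs (0.956), Gm8882 (0.953), Cdkn2aip (0.952) and Sp100 (0.948). Of these only Gm8882 was called between the diets, and AI464131 did not exceed 2.62 CPM. Without removal of the diet means, 1 of the 8 most alike, Gm8882, was the same, and Dusp26 (0.947), Tmem74b (0.944) and Mup5 (0.941) followed it. These are the highest values found among 11211 genes over only 8 libraries, where the search alone can give a high r. They describe likeness, and shared regulation was not tested.

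Since beta-adrenergic stimulation is a known regulator of these genes in salivary tissue, the genes of that pathway were read in the same libraries. Of 36 genes counted there, 26 were tested, edgeR called 2 higher and 0 lower (DESeq2 6 and 0, and 9 genes had an unadjusted p under 0.05 in edgeR), and the median log2 fold change was 0.17. Adrb1, the beta-1 adrenergic receptor, had 2.16, 1.35, 2.62 and 0.862 CPM in AL replicates 1 to 4 and 27.6, 34.2, 24.6 and 4.55 CPM in CR replicates 1 to 4. Every CR library was above every AL library, and the log2 fold change was 3.72 (SE 0.55; edgeR quasi-likelihood test, Benjamini-Hochberg adjusted p = 0.00698), with the call kept in each of 8 fits without 1 library (3.46 to 4.07). Pde3b, a phosphodiesterase that degrades cAMP, was called higher as well, with 1.23, 1.04, 0.946 and 1.42 CPM in AL and 5.44, 9.64, 3.28 and 2.11 CPM in CR (2.13, SE 0.46; adjusted p = 0.0390 in the same edgeR test). That call was kept in 1 of the 8 fits without 1 library, the fit without CR replicate 4. The receptor and the enzyme both had CR replicate 4 as their lowest CR library, as did Bpifa2 (13685 CPM) and Amy1 (3273 CPM). AL replicate 4 was the lowest AL library for Adrb1, Bpifa2 and Amy1 and the highest for Pde3b, and the part of parotid tissue in the values of this list was not tested. Prkacb, a catalytic subunit of protein kinase A, had a log2 fold change of 1.17 (SE 0.32) and Gnas, the stimulatory G protein subunit and the most counted of the list, of 0.77 (SE 0.22). EdgeR called neither, and DESeq2 called both higher. Of the 9 genes with an unadjusted p under 0.05, Adcy2 (-0.88, SE 0.38) and Prkar1a (-0.35, SE 0.15) were lower in CR, and the rest were higher. Creb1, the cAMP-responsive transcription factor, had one of -0.03 (SE 0.16).

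Genes that supply proline and that modify secreted proteins were read from lists of their own. Of 11 genes tested for proline synthesis, uptake and tRNA charging edgeR called 0 in either direction (5 at an unadjusted p under 0.05, and 0 called by DESeq2), with a median log2 fold change of 0.31. The 5 pointed in both directions, with log2 fold changes of 0.47 for Pycr1 and 0.48 for the amino acid transporter Slc1a5, and of -0.70 for Pycrl, -0.68 for Slc1a4 and -0.53 for Slc36a1. Pycr1, the last enzyme of proline synthesis, had 56.9, 50.9, 55.8 and 60.9 CPM in AL and 80.6, 74.3, 68.8 and 87.3 CPM in CR, without overlap. The SE of its log2 fold change was 0.15, and edgeR's quasi-likelihood test gave an adjusted p of 0.139. Slc1a4, a transporter of neutral amino acids, had 6.39, 7.60, 7.64 and 9.27 CPM in AL and 4.45, 3.49, 6.06 and 5.27 CPM in CR, also without overlap but lower in CR, and was not called (SE 0.25). Eprs, the tRNA synthetase for glutamate and proline and the most counted of this list, had a log2 fold change of 0.31 (SE 0.16). Of the 11 genes tested, every CR library was above every AL library in 3, Pycr1, Slc1a5 and Eprs, and below in 1, Slc1a4. Over all genes tested, 4.58% had every CR library above every AL library. Of 7 tested genes that modify secreted proteins 1 was called, Fam20a, which activates the kinase of the secretory pathway Fam20c. Fam20a had 1.15, 0.919, 0.728 and 0.456 CPM in AL and 7.35, 21.8, 16.3 and 0.444 CPM in CR, so that CR replicate 4 was just below the AL libraries (log2 fold change 3.83, SE 0.82; edgeR quasi-likelihood test, adjusted p = 0.0369). Of the 8 fits without 1 library, this call too was kept only in that without CR replicate 4. Furin, a protease that cuts proproteins and the most counted of the list, had a log2 fold change of 0.28 (SE 0.20). Each of these counts is to be read beside the 1.2% of all genes called higher and the 0.785% called lower.

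**Figure D4:**
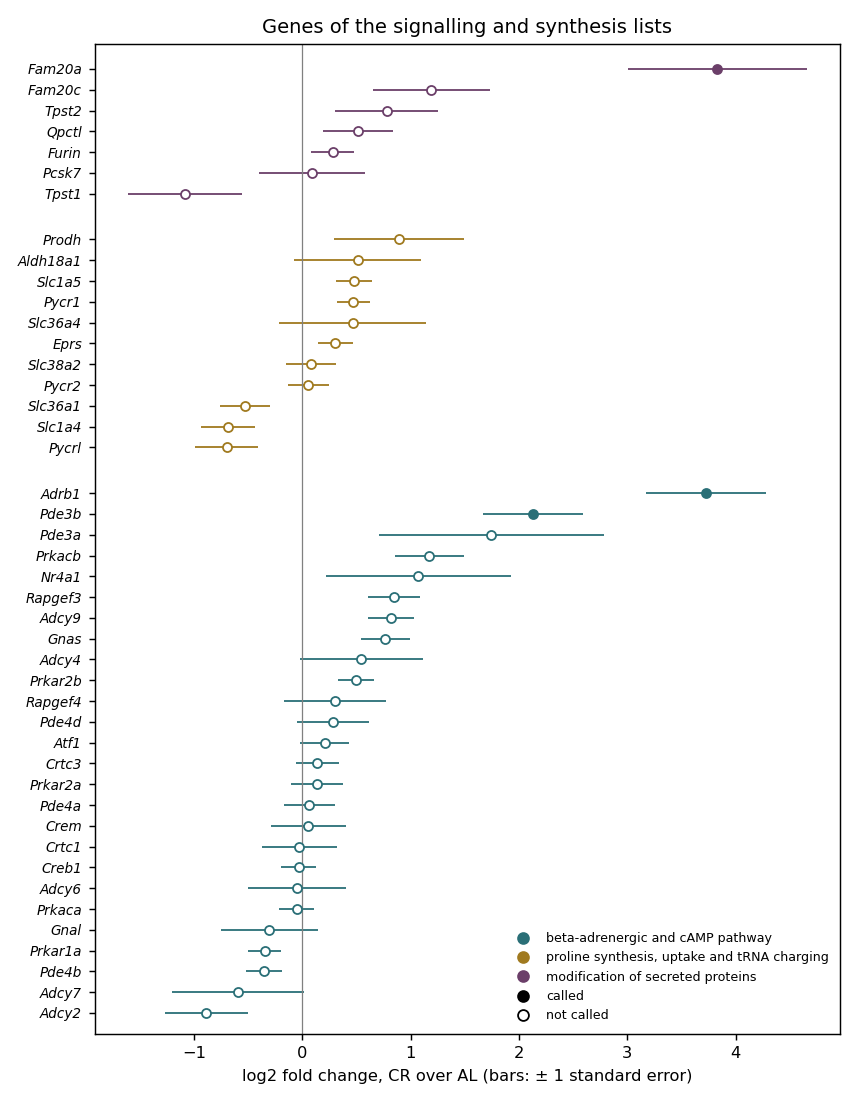
Log2 fold change of CR over AL (horizontal axis; bars are 1 standard error) for the tested genes of the beta-adrenergic and cAMP list, the proline list and the modification list (vertical axis), with filled symbols for called genes. Adrb1, Pde3b and Fam20a are the filled symbols, at 3.72, 2.13 and 3.83.

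Leaving out 1 library moved the members' values more than their direction. The lowest log2 fold change of all 6 was that without CR replicate 2, at 7.90 for Prp2, 8.10 for Prh1, 4.80 for Gm4736, 4.60 for Prb1, 3.40 for Prpmp5 and 3.34 for Smr3a. Without AL replicate 1 it was 12.53 for Prp2, 11.64 for Prh1, 7.08 for Prb1 and 7.03 for Gm4736. The number of members called was 1 without AL replicate 2 or 3, 2 without AL replicate 1 or CR replicate 1, 2 or 3, 5 without AL replicate 4 and 6 without CR replicate 4. Without both libraries numbered 4, a setting added after the data had been seen, 6 members were called and the median log2 fold change was 5.84.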

How the data were processed

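LG RNA was sequenced from the 3′ ends with reads of 75 bases. The submitters' processing notes name cutadapt, FastQC, STAR, HTSeq, DESeq2 and the mm10 build, and the authors deposited raw counts per gene. The log2 values deposited by the authors are these counts divided by size factors, plus 1, on a log2 scale. They were recomputed with a largest difference of 0.000124 and not used further. The cornea and conjunctiva were not analysed here.

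After 5 repeated symbols were dropped, 24552 genes remained, 16735 with a count and 11211 past edgeR's filterByExpr. CR was compared with AL, groups being taken from the diet on the labels, with edgeR 4.0.16 in R 4.3.3 (RLE factors, quasi-likelihood F test, Benjamini-Hochberg adjustment). Dividing the log2 fold change by √F gave the SE, and the biological coefficient of variation was 34.7%. The script was tested on simulated data.

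The members and lists were chosen with earlier results of these data known. Besides the members, genes are named if they were called in a list or were its most counted gene, were among the 8 most alike, or were among the 3 nearest on each side of a cluster. Further list genes (Amy1, Car6, Dnase1, Lpo, Egf, Smgc, Muc19, Lcn3, Lcn4, Prkacb, Adcy2, Prkar1a, Creb1, Pycr1, Pycrl, Slc1a4, Slc1a5 and Slc36a1) were chosen after their values were seen. Windows were searched in all GENCODE vM21 transcripts, and sequences were aligned globally with Biopython. Alternatives were TMM, upper-quartile and no factors, DESeq2 1.42.0, no filter, no fold-change threshold, a replicate block and leaving out each library.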

Additional observations from a re-analysis of the deposited data

Results flagged for a closer look

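Over the 12 groups of 4 libraries examined (6 members in each diet, on the log2 CPM scale), 1 held a library far from the others, and chance flags about 1 in 20 groups. Prpmp5 in AL replicate 4 had a log2 CPM of -1.61 (computed with a prior count of 2, which lifts low values), and its gap to the nearest AL library was 0.943 of the range of the group, above the critical value of Dixon's test. It rests on 4 counts, where the other AL libraries had 351, 397 and 288. AL replicate 4 was also the lowest AL library for Smr3a, Prb1 and Gm4736, whose gaps did not pass that value.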

How the results depend on the processing

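The direction of the 6 tested members was the same in 16 of 16 settings each. Prp2 stayed called in 16, Prh1 in 14 and Prb1 and Gm4736 in 10, and Smr3a and Prpmp5, not called, became so in 5 and 6. Against 134 genes higher and 88 lower, DESeq2 called 413 and 316, the test without a filter on low counts 271 and 165, the fit with a replicate block 388 and 312, and the fit without both libraries numbered 4 413 and 243. Library totals alone gave 51 lower. Among the genes of the lists other than the members, 5 were higher and 3 lower. DESeq2 gave 20 and 10, no filter 16 and 8, the replicate block 18 and 10, the fit without both libraries numbered 4 gave 22 and 11, and totals alone gave 5 lower. Of the members, 6 were called with DESeq2, with no filter and with the block, and 4 with TMM, upper-quartile or no factors. Leaving out 1 library gave between 35 (AL replicate 2) and 453 (CR replicate 4) genes higher, between 25 (CR replicate 2) and 247 (CR replicate 4) lower, between 1 and 6 members called, and between 2 and 22 list genes higher and 0 and 9 lower. The causes were not tested. Samples with the same replicate number were not treated as pairs, since the labels do not say that they share anything: the correlations of their deviations were 0.149, 0.0795, 0.244 and 0.462, and 3 of 4 AL libraries correlated best with their own number. The mean share of reads in CR lay between 2.40 and 4.65% with 1 CR library left out, and that in AL between 0.133 and 0.270% with 1 AL library left out. At this depth Prh1 and Prp2 were not detectable in AL replicates 2 and 4.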
